A study of Equus caballus with 12 samples.

Results

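The most abundant gene of the equine heart libraries, ENSECAG00000027689, was examined together with the abundant genes whose Ensembl identifiers lie next to it. The members were taken from the genes listed between ENSECAG00000027660 and ENSECAG00000027720, both included, as those with a mean share of gene counts of at least 0.2% over the 4 heart libraries, keeping at most the 10 highest. The study pairs ENSECAG00000027689 with MT-CO1, and all 10 members with protein genes of the mitochondrial genome. They were 10 of 31217 genes listed, and 10 of the 13 mitochondrial protein genes. The choice rests on heart values, so differences between heart and the other tissues are given as descriptions, with no test. Lung against liver (LvsLR) was the tested contrast between tissues, and the main test of horses used the lung and liver libraries. Descriptions of the horses also include the heart libraries that chose the members.

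RNA-seq libraries came from heart (H, left ventricle), lung (L, right caudal lobe) and liver (LR, right lobe) of 4 healthy Polish cold-blooded horses, all young stallions, sampled at slaughter. Each horse gave 1 library per tissue, so that libraries with the same replicate number came from the same animal, and each tissue had n = 4. The design asked which genes differ between the tissues, as LvsH (lung over heart), LvsLR (lung over liver) and HvsLR (heart over liver). Whole pieces of tissue were used, and in such bulk samples fewer cells of a type and less RNA per cell cannot be told apart.

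The mitochondrial genome is a small circular DNA present in many copies in most cells. Its protein genes are transcribed as long RNAs, from which the single messengers are cut out and, for most of them, given a poly(A) tail. All of them encode subunits of oxidative phosphorylation, in which complexes I, III and IV pump protons across the inner membrane and complex V uses the gradient to make ATP. Nuclear genes supply the other subunits, and cardiac muscle, which contracts without rest, is known for its high density of mitochondria.

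Counts in genes ranged from 4345694 to 23474239 per library, and the smallest count of a member in any library was 1859 reads. The 9 heart muscle markers summed to between 4.36% and 6.01% of gene counts in the heart libraries and to at most 0.00634% elsewhere, and the 7 liver markers to between 11.6% and 15.7% in the liver libraries. Heart replicate 2 stood apart, with 0.312% from the liver markers against 0.0059% to 0.0215% in the other heart libraries. Most heart means, ranges and fitted changes that it alters are also given without it. Defining genes of the lung were not paired with identifiers and were not checked. Reads set aside because they matched several genes made up 5.07% to 7.29% of listed reads in heart, 1.78% to 2.57% in lung and 2.37% to 2.92% in liver. Reads matching several places made up 9.24% to 10.8%, 5.17% to 5.89% and 6.38% to 7.45%, in the same order. How many of either kind came from the mitochondrial genes was not tested.

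By mean share of heart gene counts, which is the value that chose them, the members were MT-CO1 (24.4%), MT-ATP6 (ENSECAG00000027671, 6.58%), MT-CO2 (ENSECAG00000027692, 4.81%), MT-ND1 (ENSECAG00000027684, 4.12%) and MT-ND2 (ENSECAG00000027681, 3.84%). They were followed by MT-CYB (ENSECAG00000027669, 3.04%), MT-CO3 (ENSECAG00000027672, 2.25%), MT-ND5 (ENSECAG00000027694, 1.18%), MT-ND4 (ENSECAG00000027675, 1.06%) and MT-ND3 (ENSECAG00000027695, 0.869%). Of 58 genes listed in the identifier range, 32 had a count in any library and 14 reached 0.2% in heart, so that the limit of 10 decided the last place. MT-ND3 was the last gene inside at 0.869%, and ENSECAG00000027699, for which no symbol was found, was the first outside at 0.767%. Without heart replicate 3, 9 of the 10 members were chosen, and without any other heart library all 10 were. A share of counts also grows with the length of a transcript, and no gene lengths of the build used were at hand, so shares of different genes are not compared as levels.

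In heart, the 10 genes together took 53.8%, 49.9%, 54.1% and 50.9% of all gene counts in horses 1 to 4. In lung they took 2.36%, 1.86%, 1.99% and 1.67%, and in liver 4.92%, 4.57%, 3.96% and 5.38%. Heart thus gave these genes a share many times that of the other tissues. The means were 52.2% ± 2.11 in heart (52.9% ± 1.80 without replicate 2), 1.97% ± 0.292 in lung and 4.70% ± 0.599 in liver (SD, n = 4). In every horse liver lay above lung, by 1.99 to 3.22 times, and the lung and liver libraries did not overlap.

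MT-CO1, the catalytic subunit of cytochrome c oxidase (complex IV), held 23.9%, 30.3%, 20.9% and 22.6% of gene counts in the hearts of horses 1 to 4. Its share was 1.11%, 1.11%, 1.01% and 0.812% in the lungs, and 2.25%, 2.80%, 1.66% and 2.61% in the livers. The lowest liver library therefore lay above the highest lung library, and all heart libraries lay above both. The heart mean of 24.4% ± 4.11 became 22.5% ± 1.48 without replicate 2, which was the highest heart library for this gene. With replicate 2 included, the mean heart share was 24.2 times that of lung and 10.5 times that of liver.

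The complex I members encode core subunits of the membrane arm of NADH dehydrogenase. MT-ND1 took 3.21% to 4.83% of gene counts in heart (from 4.01% without replicate 2), 0.120% to 0.143% in lung and 0.285% to 0.470% in liver. MT-ND2 took 2.12% to 5.26% (from 3.40%), 0.0964% to 0.142% and 0.214% to 0.409%. Both genes kept the tissues apart without overlap. The other complex I members were less abundant and their lung and liver ranges overlapped. MT-ND5 ranged from 1.03% to 1.38% in heart (up to 1.22% without replicate 2), 0.0324% to 0.10% in lung and 0.0566% to 0.194% in liver. MT-ND4 ranged from 0.383% to 1.65% (from 1.04%), 0.0130% to 0.0822% and 0.0295% to 0.166%, and MT-ND3 from 0.332% to 1.25% (from 0.686%), 0.0136% to 0.0384% and 0.0285% to 0.0958%. Within each horse, however, all of them were higher in liver than in lung.

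MT-CYB, cytochrome b and the only mitochondrially encoded subunit of complex III, ranged from 1.83% to 3.96% in heart (from 2.71% without replicate 2), 0.060% to 0.122% in lung and 0.0967% to 0.218% in liver. Its lung and liver ranges overlapped. Its liver mean exceeded the lung mean 2.00 times, the smallest such ratio among the members. The remaining complex IV members, MT-CO2 and MT-CO3, gave the largest liver to lung ratios, 2.84 and 3.13. MT-CO2, which carries the copper centre that takes electrons from cytochrome c, ranged from 4.14% to 5.84% in heart, 0.105% to 0.165% in lung and 0.291% to 0.531% in liver. MT-CO3, another core subunit of that complex, ranged from 1.80% to 2.69% (from 2.02%), 0.0640% to 0.122% and 0.173% to 0.356%. MT-ATP6, the subunit of ATP synthase (complex V) that lines the proton path, ranged from 4.28% to 9.21% (from 4.38%), 0.198% to 0.351% and 0.550% to 0.777%. For these complex IV and V genes the tissues did not overlap. In all, lung lay below liver without overlap for 6 of the 10 members, beside 8.4% of all 15436 genes tested. Each of the 10 was higher in liver than in lung in 4 of 4 horses, which held for 9.74% of all genes. For each of the 10, every heart library lay above every lung and liver library, which held for 4.6% of all genes and follows in part from the choice of the members.

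**Figure D1:**
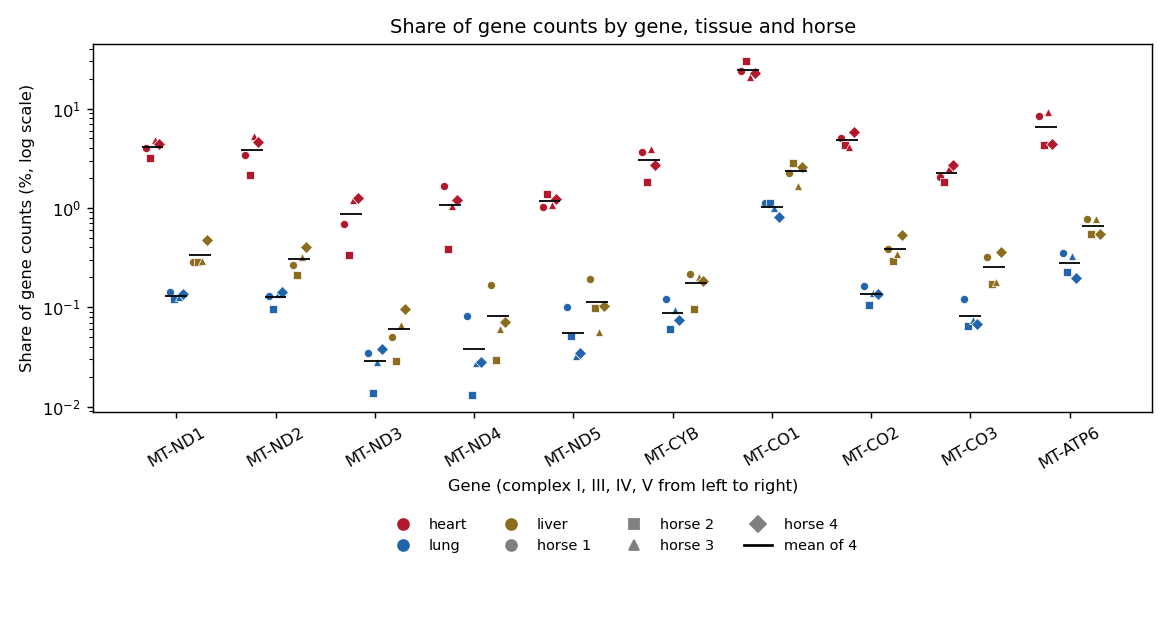
Share of gene counts in percent on a log scale for the 10 genes, with 1 point per library, the colour giving the tissue, the shape the horse and the black line the mean of 4 libraries. All heart points of a gene lie above its lung and liver points, MT-CO1 reaches 30.3% in the heart of horse 2, and lung and liver points overlap for MT-ND3, MT-ND4, MT-ND5 and MT-CYB.

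In edgeR's quasi-likelihood test with TMM factors, which scale a library by the trimmed mean of its log ratios, all 10 members were lower in lung than in liver, with an adjusted p below 0.05 and a fall of at least 1 on the log2 scale. Over all 15436 genes tested, 19.4% were lower in lung by this rule and 31.1% were higher. The fitted log2 fold changes of the members ran from -3.18 ± 0.37 (SE) for MT-CO3 to -2.56 ± 0.41 for MT-CYB. Their median was -2.78, beside a median of 0.26 over all genes tested. For MT-CO1 the change was -2.74 ± 0.38, with an adjusted p of 3.27e-05 (edgeR, Benjamini-Hochberg over all genes). Adjusted p-values of the members lay between 4.27e-06 for MT-CO2 and 0.00285 for MT-ND4 in the same edgeR test. MT-ND4 had the largest SE of them, 0.67.

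The fitted fall exceeds the ratio of the shares because TMM scales each library by the bulk of its genes. The TMM factors ran from 2.10 to 2.24 in lung and from 0.680 to 0.843 in liver. With library totals alone, the median change of the members was -1.23 and that of all genes 1.81, a shift of all genes by 1.54, and 8 of the 10 members were lower in lung, beside 7.46% of all genes tested under this scaling. MT-CYB (log2 fold change -1.0 after rounding and just short of the fold threshold, adjusted p = 0.0178 in edgeR) and MT-ND4 (-1.12, adjusted p = 0.107 in edgeR) did not. Relative to the median of all genes, the members stood at -3.04 with either scaling.

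**Figure D2:**
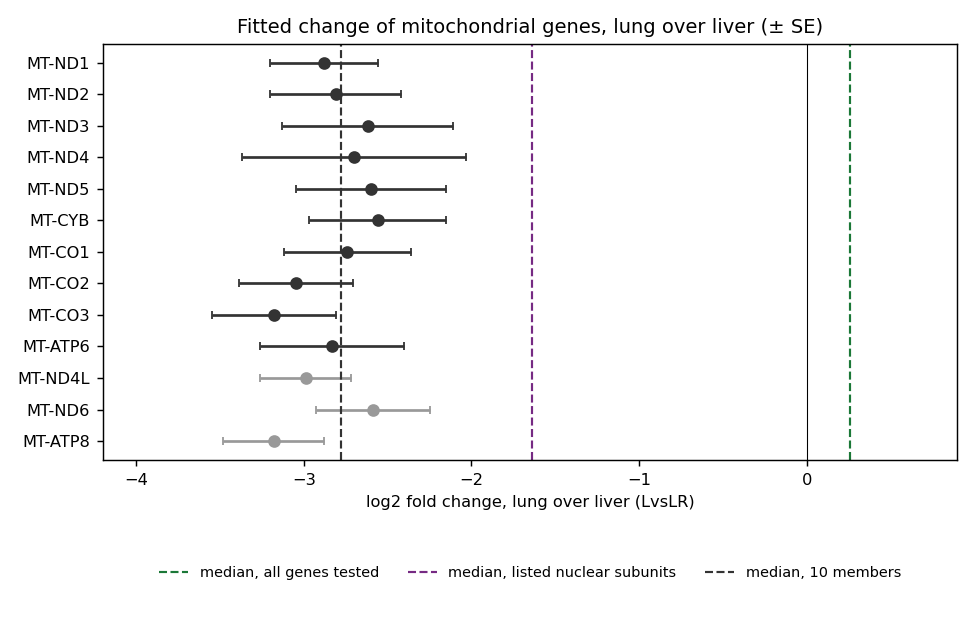
Fitted log2 fold change of lung over liver with its standard error for the 10 members (black) and the other 3 mitochondrial protein genes (grey), all of which lie between -3.18 and -2.56. Dashed lines mark the medians of the members (-2.78), of 50 listed nuclear subunit genes (-1.64) and of all genes tested (0.26).

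The heart contrasts share the heart libraries that chose the members and are given as fitted values. In LvsH the members' log2 fold changes lay between -6.98 (MT-CO2) and -6.26 (MT-ND5), with a median of -6.73 beside 0.03 for all genes. In HvsLR they lay between 3.44 (MT-CO3) and 4.40 (MT-CYB), with a median of 3.93 beside 0.12. Without heart replicate 2 these medians were -6.95 and 4.04, beside 0.10 and 0.11 for all genes. The members then lay between -7.16 (MT-CYB) and -6.21 (MT-ND5) in LvsH, and between 3.56 (MT-CO3) and 4.60 (MT-CYB) in HvsLR. MT-CYB, with the smallest fall from liver to lung, had the largest fitted difference between heart and liver among the members, and MT-CO3 the reverse order. Both contrasts use the same liver libraries, so a low liver value makes the fall smaller and the heart difference larger. Differences between members in these changes were not tested.

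The other 3 mitochondrial protein genes fell outside the 10 by their heart shares, which were 0.645% for MT-ATP8, 0.102% for MT-ND6 and 0.0767% for MT-ND4L. All of them were lower in lung than in liver in the same edgeR test. MT-ATP8, a small ATP synthase subunit, changed by -3.18 ± 0.30 on the log2 scale (adjusted p = 1.01e-06, edgeR). MT-ND4L, of complex I, changed by -2.99 ± 0.27 (adjusted p = 7.27e-07, edgeR), and MT-ND6, also of complex I and encoded on the opposite strand from the rest, by -2.59 ± 0.34 (adjusted p = 2e-05, edgeR). With the members this made 13 of 13 mitochondrial protein genes lower in lung with TMM factors, beside 19.4% of all genes tested. In the RefSeq gene table of the TB-T2T horse assembly, 4 neighbouring pairs of the 13 overlap: MT-ATP8 with MT-ATP6, MT-ATP6 with MT-CO3, MT-ND4L with MT-ND4, and MT-ND5 with MT-ND6. The counts of these genes are uncertain, since HTSeq sets aside reads over both genes and no source used here gives the strand setting.

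Besides MT-ATP8, 3 genes of the range reached 0.2% in heart without being members, and no symbol was found for them. ENSECAG00000027698, with a heart share of 0.301%, changed like the members in LvsLR, by -3.14 ± 0.27. The other pair changed less. ENSECAG00000027699 changed by -1.31 ± 0.32 (adjusted p = 0.00243, edgeR) and ENSECAG00000027676 by -1.90 ± 0.31 (adjusted p = 0.000108, edgeR). As a mean share of gene counts, however, ENSECAG00000027699 was higher in lung, at 0.0279% against 0.0241% in liver, so its fitted fall rests on the TMM scaling. ENSECAG00000027676 had 0.00955% in lung and 0.0125% in liver. For both genes the lung and liver shares overlapped. Relative to the count of MT-CO1, ENSECAG00000027699 stood at 2.10% to 3.55% in lung but at 0.685% to 1.24% in liver, with 2.45% to 4.5% in heart. These lung and liver ranges of the ratio did not overlap, and lung lay above liver in 4 of 4 horses. For ENSECAG00000027676 lung also lay above liver in 4 of 4 horses, at 0.680% to 1.38% against 0.428% to 0.682%, and the ranges overlapped slightly. These genes were singled out after their values were seen, and the difference in their ratios was not tested.

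The mutual proportions of the members do not depend on how libraries are scaled. MT-CO1 made up 51.5% ± 5.66 of the members' counts in lung and 49.4% ± 8.41 in liver (SD, n = 4), beside 47.1% ± 9.53 in heart (42.5% ± 3.33 without replicate 2). MT-ATP6 made up 13.9% ± 2.22 in lung, 14.4% ± 4.16 in liver and 12.5% ± 4.52 in heart (13.8% ± 4.53 without replicate 2). For none of the 10 members did the proportions in lung and liver separate. A two-sided exact permutation test of 4 libraries against 4 gave unadjusted p-values from 0.2 to 0.971 for the 10 members, and 0 of them lay below 0.05. The largest differences were those of MT-CO1, 2.11 percentage points higher in lung, and of MT-CO3 and MT-CO2, lower in lung by 1.26 and 1.24 points. MT-CO2 and MT-CO3 were lower in lung in 4 of 4 horses, and MT-ND5 was lower in 0 of 4. Paired within horses, an exact sign-flip test gave each of these 3 genes an unadjusted p of 0.125, the smallest that 4 pairs allow, and the other 7 genes p-values from 0.25 to 0.875. With 4 horses these tests cannot show that the proportions were alike.

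Relative to MT-CO1, those of MT-CO2 amounted to 20.2% ± 4.85 (heart, 22.2% ± 3.20 without replicate 2), 13.7% ± 3.17 (lung) and 17.1% ± 4.75 (liver). Those of MT-CYB were 13.1% ± 5.47 (15.4% ± 3.46), 8.70% ± 2.34 and 8.05% ± 3.70, with heart above both other tissues in 4 of 4 horses. MT-ATP6 stood at 28.2% ± 13.9 (32.9% ± 12.5), 27.3% ± 5.85 and 30.5% ± 12.7. For MT-CYB and MT-ATP6 the lung and liver means differed by less than either SD.

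For some of the members, differences between horses recurred in every tissue. MT-ND4 made up 3.06%, 0.768%, 1.92% and 2.34% of the members' counts in the hearts of horses 1 to 4. It made up 3.48%, 0.70%, 1.39% and 1.68% in the lungs, and 3.38%, 0.646%, 1.53% and 1.32% in the livers. Horse 1 was highest and horse 2 lowest in all 3 tissues, and the ranges of the 3 libraries of these horses overlapped with no library of another horse. The count of MT-ND4 relative to MT-CO1 was 0.0690, 0.0739 and 0.0739 in heart, lung and liver of horse 1, and 0.0126, 0.0117 and 0.0105 in those of horse 2.

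MT-ND3 was lowest in horse 2 and highest in horse 4 in every tissue. Its proportions in heart were 1.27%, 0.666%, 2.22% and 2.47% in horses 1 to 4, in lung 1.47%, 0.730%, 1.40% and 2.30%, and in liver 1.02%, 0.623%, 1.69% and 1.78%. MT-CO1 was highest in horse 2 throughout, at 60.8% in heart, 59.7% in lung and 61.4% in liver, while the other 9 libraries lay between 38.7% and 50.5%. The liver markers, raised in heart replicate 2, summed to 0.00706% in lung replicate 2. Whether their level bears on the proportions in horse 2 was not tested. On the log2 scale relative to the geometric mean of the 10 members, MT-ATP6 was highest in horse 3 and lowest in horse 4, and MT-ND1 highest in horse 2 and lowest in horse 1. MT-ND5 was lowest in horse 3 in every tissue, but its highest horse varied. In all, 6 of the 10 members had the same horse highest or lowest in all 3 tissues on this scale. These values are tied to each other, since a higher proportion of 1 member lowers those of the rest. How often other genes have the same horse highest or lowest in every tissue was not counted.

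**Figure D3:**
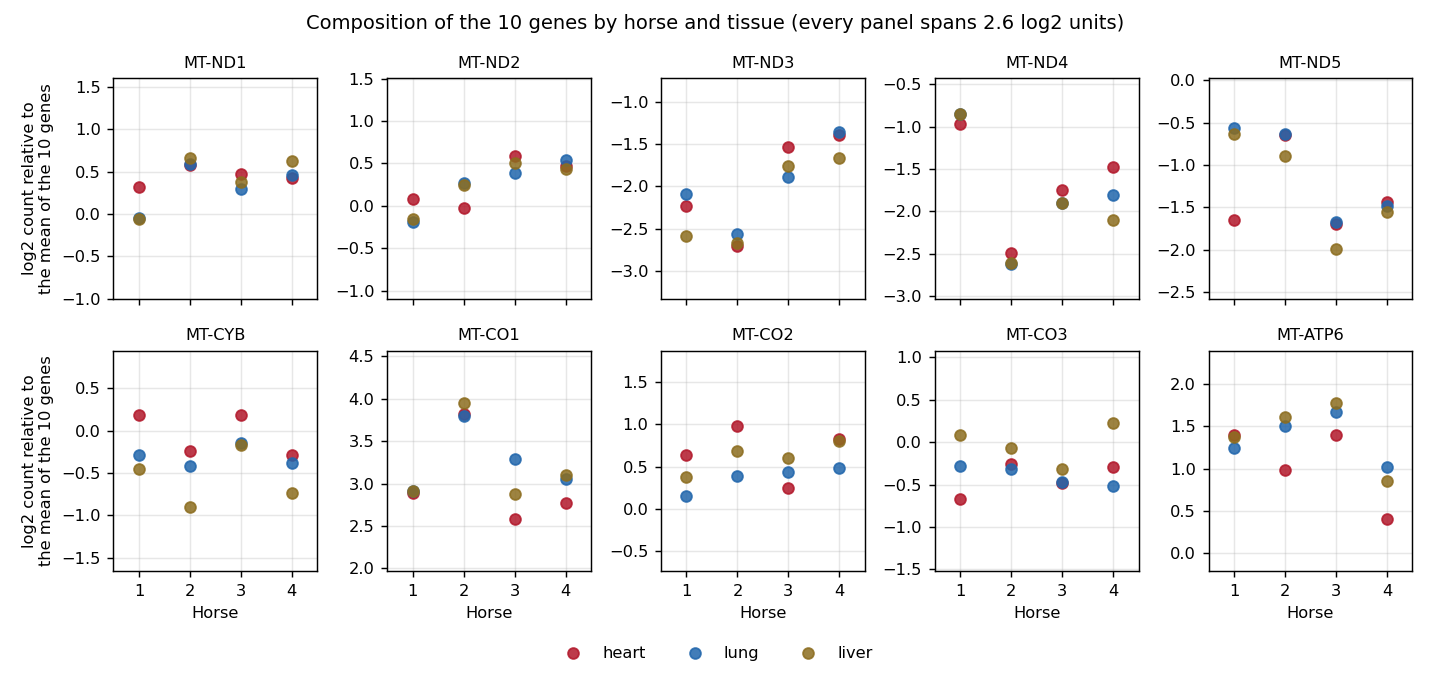
The log2 count of each gene relative to the mean log2 count of the 10 genes, by horse, with 1 point per library and the colour giving the tissue. For MT-ND4 the horse means run from -2.57 (horse 2) to -0.89 (horse 1). Its 3 tissues lie close together except in horse 4, where they run from -2.10 (liver) to -1.47 (heart). For MT-CYB and MT-CO3 the range of the horse means is smaller than that of the tissue means.

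On that scale, the range of the 4 horse means was larger than the range of the 3 tissue means for 8 of the 10 members, the exceptions being MT-CYB and MT-CO3. For MT-ND4 the horse means spanned 1.69 and the tissue means 0.19, and the horses took 94.9% of the sum of squares against 1.72% for the tissues. For MT-ND3 the horses took 90.8% and the tissues 3.78%. For MT-CO3 the order was reversed, with 13% for the horses and 57.8% for the tissues. The medians over the members were 75.0% and 5.45%. With 4 horses and 3 tissues, these shares are descriptions of 12 libraries and carry no test.

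A comparison of the horses was added after the data had been examined, as a horse term in edgeR's quasi-likelihood test of the expression level with tissue in the model. Since the pattern had been seen in the same libraries, its p-values are not independent evidence. In the lung and liver libraries alone, whose values did not choose the members, it called 1 of the 10 members, MT-ND4 (adjusted p = 0.00746, edgeR), beside 1.68% of all genes tested. MT-ND5 came next with an adjusted p of 0.0625 and MT-ND3 with 0.102 (edgeR). With the heart libraries included, 1 of 10 was called, again MT-ND4 (adjusted p = 0.0154, edgeR), beside 1.06% of all genes. As shares of gene counts, MT-ND4 stood at 1.65%, 0.383%, 1.04% and 1.19% in the hearts, 0.0822%, 0.0130%, 0.0276% and 0.0281% in the lungs and 0.166%, 0.0295%, 0.0606% and 0.0710% in the livers of horses 1 to 4. Horse 2 was lowest and horse 1 highest in each tissue. In lung and liver, MT-ND4 lost its call without lung replicate 1 (adjusted p = 0.0536, edgeR, with 1.16% of all genes called) and without both libraries of horse 1 (adjusted p = 0.212, edgeR, with 0.457%). Leaving out any other library or horse kept it, and MT-ND5 was called as well without horse 2, lung replicate 2 or liver replicate 2. What sets the horses apart was not tested.

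Over all 10 genes, libraries of the same horse resembled each other most. The root mean square log2 difference in composition had a median of 0.292 over the 12 pairs of libraries from the same horse and different tissues, with a range from 0.193 to 0.491. It had a median of 0.596 over the 18 pairs from the same tissue and different horses, and of 0.647 over the remaining 36 pairs. For 11 of the 12 libraries, the nearest library came from the same horse. The ranges of the same-horse and same-tissue pairs overlapped, since the latter began at 0.305.

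**Figure D4:**
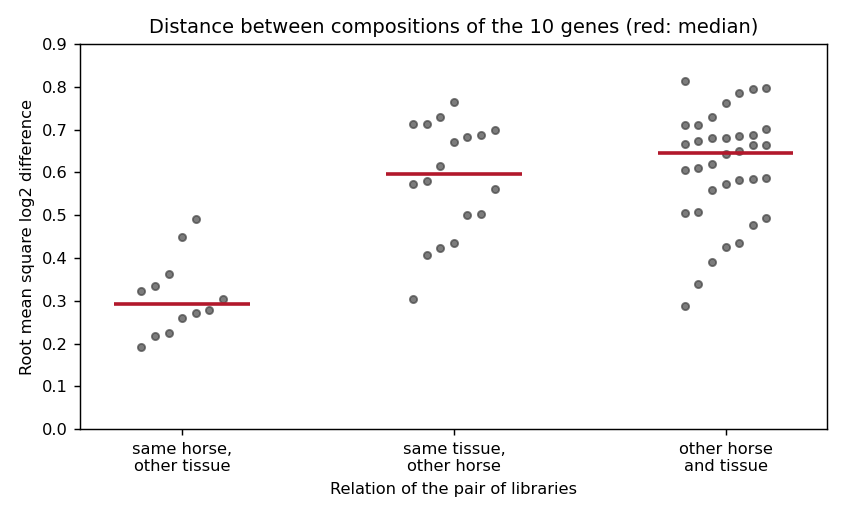
Root mean square log2 difference between the compositions of the 10 genes for each pair of libraries, grouped by how the pair is related, with the median in red. The medians are 0.292 for the same horse, 0.596 for the same tissue and 0.647 for pairs that share neither.

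The nuclear genome supplies the other subunits of the complexes. Of 50 nuclear subunit genes with an identifier in the study's gene lists, 47 were lower in lung than in liver in edgeR's quasi-likelihood test and 0 were higher, beside 19.4% and 31.1% of all genes tested. Their median log2 fold change was -1.64, so the median of the mitochondrial members, -2.78, was lower. As a share of gene counts, the 50 genes together took 0.405% to 0.452% in lung and 0.417% to 0.531% in liver. These ranges overlapped, so the fitted fall of the nuclear genes depends largely on the TMM scaling. Their calls with library totals alone were not counted. The study listed most of these genes as changed in these same libraries, so that the counts are not independent evidence of a direction. By complex, 24 of 26 genes were lower for complex I, 4 of 4 for complex II, 4 of 4 for complex III, 5 of 5 for complex IV and 10 of 11 for complex V.

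Abundant nuclear genes of the complexes to which members belong included NDUFS1 (complex I), CYC1 and UQCRFS1 (complex III), COX4I1 and COX5B (complex IV), and ATP5F1B and ATP5F1A (complex V). Their log2 fold changes in LvsLR were -1.43 ± 0.19 for NDUFS1, -1.46 ± 0.18 for CYC1 and -1.79 ± 0.18 for UQCRFS1. They were -1.20 ± 0.20 for COX4I1, -1.85 ± 0.19 for COX5B, -1.61 ± 0.21 for ATP5F1B and -1.37 ± 0.19 for ATP5F1A. Complex II, which has no mitochondrially encoded subunit, was represented by SDHA (-1.67 ± 0.20) and SDHB (-1.95 ± 0.20). All 9 genes named here passed the test in edgeR, with adjusted p-values of at most 0.000151. As a description, the median change of the 50 genes was -3.35 in LvsH and 1.68 in HvsLR (-3.41 and 1.78 without heart replicate 2), against -6.73 and 3.93 for the members.

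Counts of the 10 members per count of the 50 nuclear genes were 48.5, 43.2, 41.3 and 33.6 in the hearts of horses 1 to 4. They were 5.33, 4.60, 4.60 and 3.69 in the lungs, and 10.4, 8.60, 9.49 and 11 in the livers. The ratio was highest in heart and lowest in lung in each horse, without overlap between tissues.

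**Figure D5:**
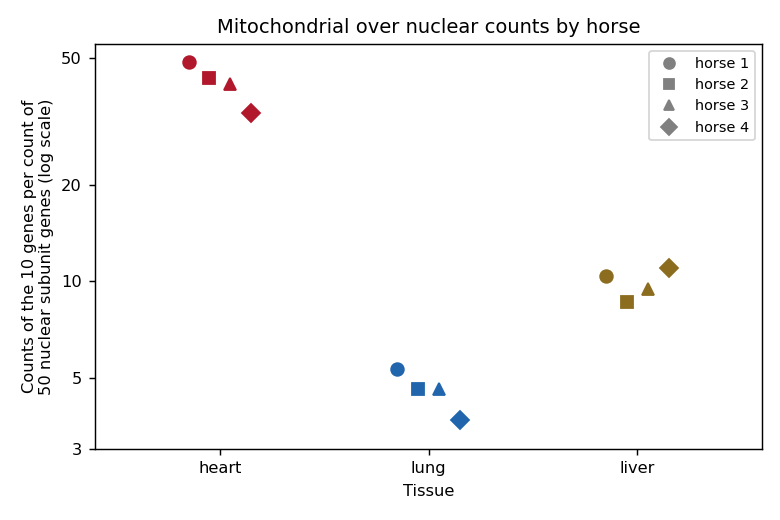
Summed counts of the 10 members divided by those of 50 nuclear subunit genes, on a log scale, with 1 point per library and the shape giving the horse. Heart lies between 33.6 and 48.5, liver between 8.60 and 11 and lung between 3.69 and 5.33.

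A list of 11 nuclear genes held factors of mitochondrial RNA, the nuclear receptor ESRRA and the coactivators PPARGC1A and PPARGC1B. In edgeR's quasi-likelihood test 8 were lower in lung than in liver and 0 were higher, beside 19.4% and 31.1% of all genes tested. Their median log2 fold change was -1.48, near the shift of all genes by 1.54 with library totals alone. As a description, their median was -1.65 in LvsH. In HvsLR it was 0.19, with a range from -0.94 to 2.04, against a median of 3.93 for the members. LRPPRC and SLIRP, which bind and stabilise mitochondrial messengers, changed by -1.80 ± 0.17 and -1.48 ± 0.18. TFB2M, a transcription factor of the organelle, changed by -1.76 ± 0.24, and MTERF3, of the mitochondrial termination factor family, by -1.55 ± 0.18. ESRRA, a nuclear receptor that acts on genes of energy metabolism, changed by -2.12 ± 0.23. POLRMT, the RNA polymerase of the mitochondrion, had a log2 fold change of -0.98 ± 0.24 (adjusted p = 0.00254, edgeR) and missed the fold threshold. The coactivators PPARGC1A (-1.0 ± 0.59, adjusted p = 0.153, edgeR) and PPARGC1B (0.45 ± 0.41, adjusted p = 0.347, edgeR) missed the p threshold. As with the subunits, these genes are those the study listed.

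By level across the 12 libraries, the genes most like MT-CO1 outside the identifier range were ENSECAG00000016730, ENSECAG00000039132 and ENSECAG00000015700, with Pearson correlations of log2 CPM of 0.9955, 0.9950 and 0.9946 among 2099 genes of at least 100 CPM in a tissue. No symbol was found for these genes. The 9 other members had correlations with MT-CO1 from 0.9425 (MT-ND4) to 0.9922 (MT-ND1). These correlations describe 12 libraries that fall into 3 tissues, and a gene high in heart, lower in liver and lowest in lung gives a high value.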

How the data were processed

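RNA was measured by RNA-seq in heart, lung and liver of 4 horses (12 libraries, paired 150-base reads, TruSeq RNA kit version 2). Each deposited file held unnormalised counts of reads per gene. Per the submitters' processing notes and the study's methods, the authors used FastQC for quality, TopHat2 for alignment to EquCab3.0 and HTSeq for counting. Summary rows of HTSeq stayed out of library sizes and tests. The share set aside as outside any gene was 18.7% to 20.3% in heart, 28.8% to 30.2% in lung and 16.8% to 22.0% in liver.

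The members and gene lists were chosen with earlier results of these data known. The deposited files carry no symbols, and the RefSeq gene table (TB-T2T assembly) lists 0 Ensembl identifiers. Symbols are those that the study's supplementary gene lists pair with identifiers. They gave the names and decided which genes entered the gene and marker lists, and no values of the study were used. Named were all members, the gene next below the limit, the remaining mitochondrial protein genes, the 3 genes most like MT-CO1, and per nuclear complex the 2 genes with the highest mean CPM, of which 1 gene is not reported here. The abundant genes of the range without a symbol and the genes from the list with factors of mitochondrial RNA were named after their values were seen.

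Counts were analysed with edgeR 4.0.16 in R 4.3.3 (default filter by tissue, 15436 genes, TMM factors, 1 robust quasi-likelihood model of 3 tissues, Benjamini-Hochberg adjustment over all genes). Calls required adjusted p under 0.05 and a log2 fold change of 1 or more in size, and the horse term had no fold threshold. The SE was the ratio of the log2 fold change to the root of F. DESeq2 1.42.0, other scalings, no filter, a replicate block and leaving out single libraries were alternatives. Log2 CPM used a prior count of 2. Exact permutation tests were two-sided. Horses were compared by a horse term beside tissue, in the lung and liver libraries and, as an alternative, in all 12. A test planned for the summed share and an adjustment over the members alone are not given, since the members were chosen with results known. All scripts for tests were tested on simulated data.

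Horse numbers pair the libraries, since the labels give 1 number per animal. After subtraction of the tissue mean, log2 CPM correlated across genes at 0.087 to 0.372 (median 0.131) in the 12 pairs of the same horse, and at -0.249 to 0.128 in the 36 other pairs from different tissues. PCR duplicates could not be recognised by molecular identifiers.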

Additional observations from a re-analysis of the deposited data

Results flagged for a closer look

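In 63 groups of 4 libraries (the share of gene counts and the proportion of the members' counts of each of the 10 members, and the summed share, in each tissue), 1 group had a library far from the other 3. MT-ND1 took 0.470% of gene counts in liver replicate 4, against 0.285% to 0.293% in the other livers, a gap of 0.959 of the group's range, which is above Dixon's 95% critical value. Chance alone flags about 1 in 20 such groups. Liver replicate 4 was the library with the fewest gene counts, 4345694. Without it, MT-ND1 and the other 9 members were still lower in lung than in liver in edgeR's quasi-likelihood test, beside 21.5% of all genes.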

How the results depend on the processing

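All 10 members stayed lower in lung than in liver under the size factors of DESeq2 within edgeR, TMM factors without the members, DESeq2 itself, no filter on low counts, the replicate block with horse as a term, lung and liver libraries alone, and without each library in turn, with median log2 fold changes from -2.93 to -2.73. Over all genes tested, 14.1% (no filter) to 21.5% (without liver replicate 4) were lower in lung in these settings. The replicate block gave a median of -2.76 and changed no call of a member. With library totals alone 8 passed, beside 7.46% of all genes. The summed share in liver was 2.39 times that in lung. It was 2.70 times as a percent of all listed reads, 2.46 relative to all other genes, 2.44 as a mean of ratios within horses, and 2.27 to 2.56 without single libraries. Counts of members with an exact p below 0.05 for composition stayed at 0 on the log2 scale and as ratios to MT-CO1. The form without 1 library was not run. The horse term in lung and liver, added after the data were examined, called 1 member. DESeq2 called 5 (MT-ATP6, MT-CYB, MT-ND5, MT-ND4 and MT-ND3) and 4.56% of all genes, and no filter called 2 and 2.01%. Without single libraries or horses it called 0 to 2, and 0.457% to 4.83% of all genes. In all 12 libraries the term called 1. DESeq2 called 5 and 3.11% of all genes there, no filter 2 and 0.888%, the fit without lung 0 members and 0 of 13312 genes, and that without liver 0 and 0.112%. Without single libraries or horses it called 0 to 1, and 0.423% to 1.3% of all genes. Without a limit on number the rule gave 14 members.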
